A study of Arabidopsis thaliana with 6 samples.

Results

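The glycosyl hydrolase family 9 (GH9) endoglucanase genes of Arabidopsis thaliana were followed from young to old siliques, the seed pods of the plant. A gene was included when the annotation of the array named it alone for a probe set with a symbol starting with GH9. This gave 15 genes with 1 probe set each, out of 22746 probe sets that were not controls, and all 15 were found in the TAIR10.1 reference table. By locus the family has 25 genes, 4 in class A, 18 in class B and 3 in class C. The 15 were 2 of class A, 10 of class B and all 3 of class C. The 10 other genes, GH9A1 (KORRIGAN) and GH9B1 (CEL1) among them, had no probe set naming them alone and were not analysed here.

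RNA came from plants of the accession Col-1 under continuous light in a glasshouse and was measured on 6 Affymetrix ATH1 arrays, with 3 young and 3 old pod samples. All samples carry the same labels for tissue, mature and senescing siliques, and for stage, first silique shattered, and only the titles set young pods apart from old ones. The labels give neither how pod age was set nor how many plants or pods went into a sample. They do not say that replicates came from separate plants, so p-values cover the spread among these 6 samples alone, and precision is limited by the number of arrays.

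GH9 enzymes cut chains of beta-glucans such as cellulose from within, and plants use them in building and loosening walls. Class A proteins are anchored in membranes, and the best known, KORRIGAN, is needed for cellulose synthesis. Class B proteins are secreted and consist mainly of the catalytic domain. Class C proteins are secreted and carry an added carbohydrate-binding module at the C terminus. Endoglucanases of the family are known from organ abscission in bean and from fruit ripening in tomato.

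Of the 15 genes, 4 fell in old pods and none rose in limma. GH9B5 fell at least 6.03-fold, GH9C1 9.61-fold, GH9A3 6.31-fold and GH9B7 3.29-fold (n = 3 arrays per group). GH9B8, GH9C2 and GH9B18 were lower on average without passing the threshold, and GH9A4 differed little between the groups. The other 7 genes were too dim to be tested. Each class held both a gene that fell and a gene that did not pass.

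Signals are MAS5 values on a linear scale, each array scaled to the same trimmed mean, so a change shared by most transcripts would not be visible. Only probe sets brighter than the 40th percentile of the array on 3 or more arrays entered the test, and 8 of the 15 did. The percentile lay at 32.5 to 36.5 for young pods and at 24.3 to 34.5 for old pods. Among all 14277 probe sets tested, 22.0% differed at an adjusted p under 0.05, with 12.3% lower and 9.68% higher in old pods. Of the 8 tested GH9 genes, 4 were lower and 0 higher. At an unadjusted p under 0.05 in limma, 7 were lower and 0 higher. The share of all probe sets at that unadjusted threshold is not given here, so the 7 have no background beside them. The ordinary two-sample test at an adjusted p under 0.05 called 3 lower and 0 higher. It called 1360 of all 14277 probe sets in either direction. Signals of the groups did not overlap, with old pods lower, for 4 of the 8 GH9 genes and for 23.0% of all tested probe sets. The log2 change was below 0 for 7 of the 8 and for 55.7% of all. All 8 entered the test by exceeding the percentile on the 3 young arrays, and 1 of them, GH9B5, exceeded it on no old array. The filter can so favour genes that are high in young pods, and counts over the 8 describe them without standing for the family. Over all 15 genes with no filter the median log2 change was -1.15, with 12 below 0, beside -0.16 and 59.7% below 0 over all 22746 probe sets. As a sign of RNA quality, the log2 ratio of the 3 prime to the 5 prime actin control probe set was 3.05 to 3.19 on the young arrays and 3.40 to 3.79 on the old ones, higher on every old array. The same ratio overlapped between the groups for the GAPDH and ubiquitin controls, and the part of RNA quality in the GH9 changes was not tested. Old replicate 1 stood apart from the other old arrays for several genes below, and results that rest on it are given with and without it.

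**Figure D1:**
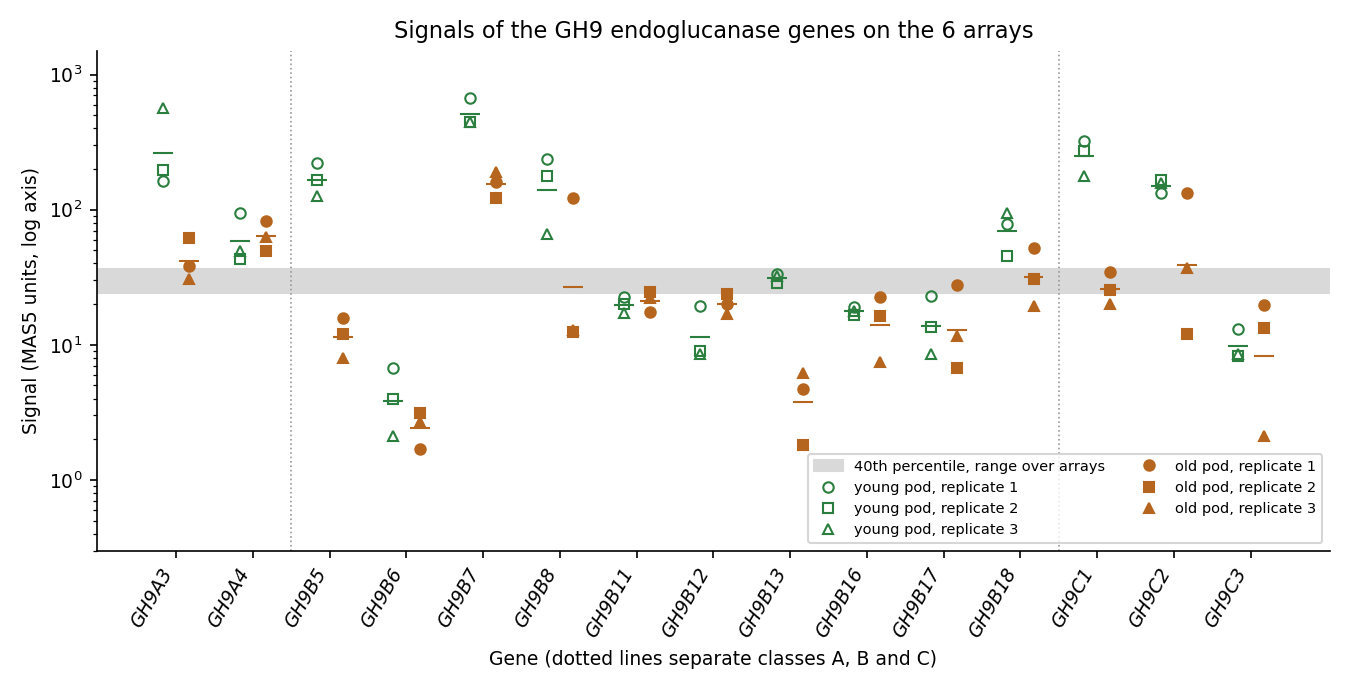
Signal of each GH9 gene (MAS5 units, log axis) on the 3 young arrays (open green) and the 3 old arrays (filled brown), with the marker shape giving the replicate number, short bars the mean of the log2 signals and the grey band the range of the 40th percentile over arrays. GH9A3, GH9B5, GH9B7 and GH9C1 are lower on every old array than on any young array, and 7 genes lie under the percentile of the array throughout.

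In class A, GH9A3 fell and GH9A4 did not pass. GH9A3, also called KOR3 and a relative of KORRIGAN, had signals of 164.1, 196.6 and 562.1 on young replicates 1, 2 and 3. On the old arrays its signals were 38.3, 61.9 and 30.5, above the percentile of each array and below the lowest young array. Young replicate 3 stood highest and old replicate 3 lowest, so this pair differed most. The fall was 6.31-fold (log2 change -2.66, SE 0.48, limma adjusted p = 0.00726). It did not pass in the ordinary two-sample test without moderation (adjusted p = 0.0807), and its adjusted p over the 19 alternative settings was 0.00511 at the lowest and 0.0807 at the highest.

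GH9A4, the other class A gene measured, had signals of 95.2, 43.3 and 49.7 on the young arrays. On the old arrays its signals were 82.7, 49.6 and 63.2, so the groups overlapped, and replicate 1 was the highest of each group. The log2 change was 0.11 (SE 0.35), with a 95% interval from -0.69 to 0.92 and a limma adjusted p = 0.849. The interval allows a change of nearly 1 on the log2 scale upward, so it does not show that GH9A4 was equal in the groups.

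Whether both class A genes changed unequally was read from the log2 ratio of GH9A3 to GH9A4 on each array. This ratio was 0.79, 2.18 and 3.50 in young pods and -1.11, 0.32 and -1.05 in old pods. The groups did not overlap, and their means differed by -2.77. An exact two-sided permutation test over the 20 splits of the arrays gave p = 0.1, the smallest p that 3 arrays against 3 allow, and 0.2 adjusted over the 2 such comparisons made.

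In class B, GH9B5 and GH9B7 fell, GH9B8 and GH9B18 did not pass, and 6 genes were not tested. GH9B5 had signals of 221.6, 166.8 and 125.2 on the young arrays and of 15.8, 12.0 and 8.0 on the old arrays. Each old array was under its percentile, so the old level has only an upper bound. The fall was therefore at least 6.03-fold, taking the higher of the percentile and the signal for each old array. The fitted log2 change was -3.86 (SE 0.35, limma adjusted p = 0.00056). With low signals raised to the percentile the change was -2.59 (adjusted p = 0.000516). GH9B5 entered the test through its young arrays alone. The changes of the same-numbered arrays were -3.81, -3.80 and -3.97, so the 3 pairs moved almost equally.

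GH9B7 had signals of 667.9, 446.7 and 442.2 on the young arrays. On the old arrays its signals were 159.3, 122.7 and 189.3, all far above the percentile and all below the lowest young array. The fall was 3.29-fold (log2 change -1.72, SE 0.25, limma adjusted p = 0.00298). With arrays scaled on the hybridisation controls, the log2 change was -1.74 but did not pass (adjusted p = 0.534). Under that scaling 628 probe sets passed in all, in place of 3145. Over the 19 alternative settings the adjusted p of GH9B7 ran from 0.00191 to 0.534, and it passed in 18.

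GH9B8 had signals of 235.5, 178.1 and 65.7 on the young arrays and of 122.9, 12.4 and 12.9 on the old arrays. Old replicate 1 lay within the range of the young arrays, and the other old arrays were under the percentile. The log2 change was -2.38 (SE 0.89) and did not pass (limma adjusted p = 0.0962). A fit that paired the arrays by replicate number, as a block, did pass (adjusted p = 0.0243). Without old replicate 1 the fit passed (adjusted p = 0.00307). Both old arrays left are under the percentile, so that fall is a bound of at least 5.67-fold. With all arrays and low signals raised to the percentile the change was -1.73, and over all alternatives the adjusted p ran from 0.00302 to 0.276.

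GH9B18 had signals of 78.6, 45.4 and 94.6 on the young arrays and of 51.8, 30.9 and 19.5 on the old arrays. The groups overlapped through old replicate 1 and young replicate 2. The log2 change was -1.15 (SE 0.43, limma adjusted p = 0.0934), and without old replicate 1 it was -1.50 and passed (adjusted p = 0.0265, with 0.0265 to 0.938 over the 18 alternatives that tested it). GH9B16, GH9B17 and GH9B18 are direct neighbours on chromosome 4 in the TAIR10.1 gene order, with 0 protein-coding genes between them. Of these 3 neighbours, GH9B18 was the only one bright enough to be tested. GH9B16 ranged from 7.4 to 22.7 over the 6 arrays and GH9B17 from 6.7 to 27.8.

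The 6 untested class B genes did not exceed the percentile on any array. GH9B13 differed between the groups even so, with signals of 33.2, 28.7 and 32.3 on the young arrays and of 4.7, 1.8 and 6.2 on the old arrays. The groups did not overlap, and no fold is given because both lie under the percentile. Fitted without the filter, GH9B13 had an adjusted p = 0.0117 in limma, where 5 of the 15 GH9 genes were lower beside 7.82% of all 22746 probe sets. GH9B6 was at 6.7, 4.0 and 2.1 in young pods and 1.7, 3.1 and 2.7 in old pods. GH9B11 and GH9B12, neighbours on chromosome 2, had overlapping groups. GH9B12 ranged from 8.5 to 19.4 in young pods and from 17 to 23.9 in old pods, and GH9B11 from 17.1 to 24.6 over all arrays.

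In class C, GH9C1 fell, GH9C2 did not pass and GH9C3 was not tested. GH9C1 is known from root hairs and from the endosperm of the seed. Its signals were 320.9, 273.4 and 178.2 in young pods and 34.6, 25.6 and 19.9 in old pods. The old signals lay close to the percentile, which was 34.5, 25.2 and 24.3 on these arrays. The fall was 9.61-fold (log2 change -3.26, SE 0.30, limma adjusted p = 0.000579). The same-numbered arrays changed by -3.21, -3.42 and -3.16. On the scale of log2(signal + 16) the change was -2.66 and passed (adjusted p = 0.000354).

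GH9C2 had signals of 131.8, 164.6 and 156.7 on the young arrays, a narrow range. On the old arrays its signals were 131.9, 12.0 and 37.3. Old replicate 1 was level with young replicate 1, while old replicates 2 and 3 were far below every young array. The log2 change was -1.95 (SE 0.74, limma adjusted p = 0.097). Without old replicate 1 it was -2.83 and passed (adjusted p = 0.00407, with 0.00407 to 0.275 over the alternatives). Without old replicate 2 it was -1.10 (adjusted p = 0.21). The signal of 12.0 on old replicate 2 was under the percentile of that array, 25.2, so changes that include it are uncertain in depth. With all arrays and low signals raised to the percentile the change was -1.59 (limma adjusted p = 0.0633).

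GH9C3 was under the percentile on every array, at 13.1, 8.3 and 8.6 in young pods and 19.8, 13.2 and 2.1 in old pods. The log2 ratio of GH9C1 to GH9C2 was 1.28, 0.73 and 0.19 in young pods and -1.93, 1.09 and -0.91 in old pods. These groups overlapped, and the exact two-sided permutation test gave p = 0.3 (0.3 adjusted over the 2 comparisons).

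**Figure D2:**
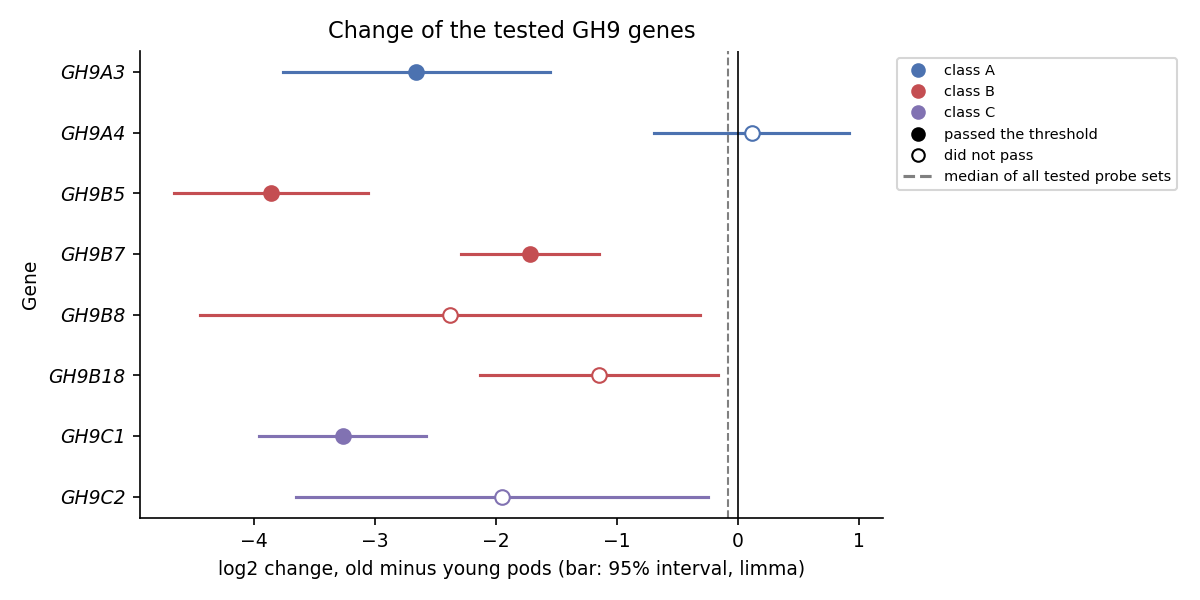
Log2 change, old minus young pods, of the 8 tested GH9 genes with 95% intervals from limma, coloured by class, filled where the adjusted p was under 0.05, with the dashed line at the median of all tested probe sets (-0.08). GH9A3, GH9B5, GH9B7 and GH9C1 passed, and the interval of GH9A4 spans 0.

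Set side by side, the classes did not separate by direction. The median log2 change over the tested genes was -1.27 for the 2 of class A, -2.05 for the 4 of class B and -2.61 for the 2 of class C. With 2 to 4 tested genes in a class these medians are descriptions, and no test between classes was made. Over the same-numbered arrays 1, 2 and 3, the class A median was -1.15, -0.74 and -1.93. The class B median was -1.50, -2.83 and -2.31, and that of class C was -1.61, -3.60 and -2.62. The ranges of classes B and C overlapped each other, and the class A range overlapped both.

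In level, the classes were compared by the number of genes above the percentile, because the brightness of different probe sets is not on one scale. In young pods, 2 of 2 class A genes, 4 of 10 class B genes and 2 of 3 class C genes were above it on all 3 arrays. Of the 15 genes, 8 were above the percentile on each young array, and 7, 5 and 4 on old replicates 1, 2 and 3. By definition 40% of all probe sets that were not controls lie at or under the percentile on each array, so most exceed it. The share of all probe sets above it on all 3 young arrays is not given here, so these counts describe the genes alone. The summed signal of the class A probe sets was 239.9 to 611.8 on the young arrays and 93.7 to 121 on the old arrays. That of class B was 814 to 1327 in young pods and 254.3 to 444.4 in old pods, with GH9B7 the brightest probe set in its sum. That of class C was 343.5 to 465.8 in young pods and 50.8 to 186.3 in old pods. In each class every old array was below every young array in this sum. The sum follows its brightest probe sets and does not hold gene by gene. Among the tested genes, GH9A4, GH9B8, GH9B18 and GH9C2 overlapped between the groups, and in class A only GH9A3 separated them.

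Taking old replicate 1 out changed the count of genes that fell. Without it, 7 of the 8 tested GH9 genes were lower, beside 14.9% of all tested probe sets, and GH9A4 did not pass. Replicates 2 and 3 alone also gave 7, beside 15.9%. Pairing by replicate number, as a block, gave 5, beside 13.8%. GH9A3, GH9B5, GH9B7 and GH9C1 each passed without any 1 of the 6 arrays (highest adjusted p in limma 0.032, 0.00499, 0.0154 and 0.00523).

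**Figure D3:**
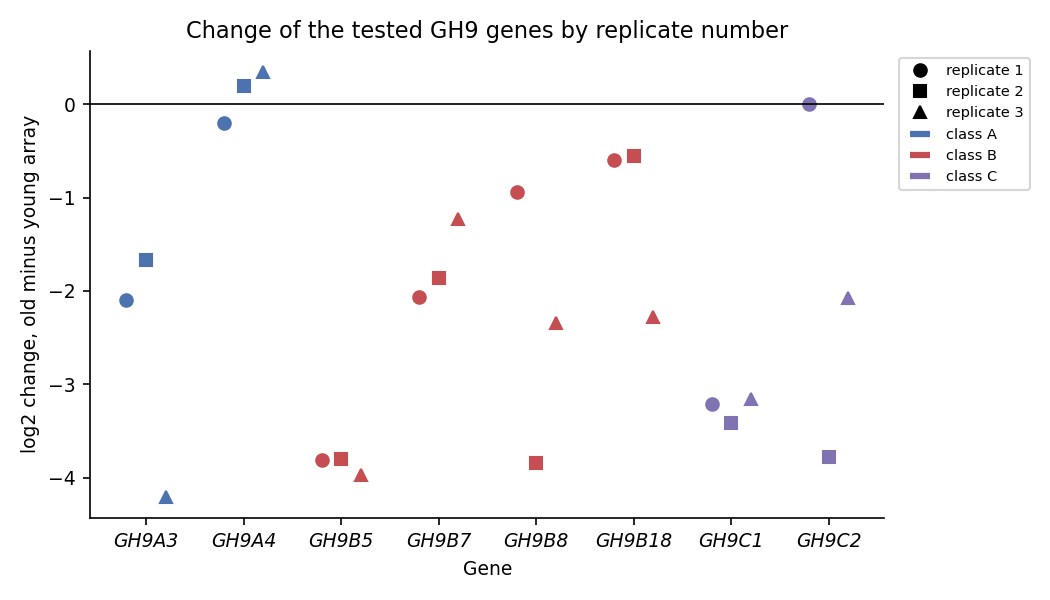
Log2 change between the old and the young array of the same replicate number for the 8 tested GH9 genes, with marker shape giving the replicate number and colour the class. GH9B5 and GH9C1 lie close together over the 3 numbers, while for GH9B8 and GH9C2 replicate 1 changed by -0.94 and 0.00 and replicate 2 by -3.84 and -3.78.

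A pod holds seeds and several tissues of its wall, and in such a mixture fewer cells of a type and less RNA per cell cannot be told apart. Marker genes were read on the same arrays, beside the 12.3% of all tested probe sets that were lower in old pods and the 9.68% that were higher. Of 8 seed coat markers listed, BAN and DELTA-VPE had a named probe set, and both fell. Their summed signal was 3733 to 6473 on the young arrays and 40.4 to 228 on the old arrays. Of 6 markers listed for the green pod wall, 4 were tested and 2 fell (LHCB4.2 and SBPASE), with a summed signal of 7855 to 10936 in young pods and 5035 to 5666 in old pods. LHCB4.2 passed under 13 of 19 alternative settings and SBPASE under 17.

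Of 8 endosperm markers, AGL62 was the 1 with a named probe set, and it lay under the percentile on every array, at 9.9 to 13.0 in young pods and 11.9 to 23.7 in old pods. The 2 root hair markers measured of 7, EXPA7 and EXPA18, were also under the percentile throughout, summing to 30.3 to 57.5 in young pods and 18.3 to 26.9 in old pods. The 2 pollen markers measured of 4, ANX1 and ANX2, summed to at most 28.9 on any array. PAP85, the 1 marker of embryo and seed maturation measured of 16, was at 14.9 to 25.9 in young pods and at 3701, 214.9 and 210.1 on old replicates 1, 2 and 3. Old replicate 1, where GH9B8 and GH9C2 stayed bright, was also the array brightest in PAP85. Among the old arrays it was brightest in the seed coat markers too. BAN was at 46.8, 8.2 and 10.7 and DELTA-VPE at 181.2, 41.3 and 29.7 on old replicates 1, 2 and 3. Of the green pod wall markers, RCA was brightest there, PRK and SBPASE were dimmest and LHCB4.2 lay between. The part of these tissues in the GH9 changes was not tested.

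Among 1089 other genes with a symbol that were tested, the pattern of GH9C1 was nearest to that of GH9B5. Likeness was the Euclidean distance over the 6 log2 signals, each gene centred on its own mean, and it was 0.76 for GH9B5. Over all 14277 tested probe sets, most of them without a symbol, 7 others lay nearer. The next were 3xHMG-box2, a protein of mitotic chromosomes, at 0.93 and GSTU15, a tau-class glutathione S-transferase, at 0.98. The plastid ribosomal protein gene rpl36 followed at 1.09 and the MADS-box gene AGL87 at 1.15. Distances rest on 2 groups of 3 arrays, so any gene with a fall of similar depth and small spread comes out near. The remaining tested GH9 genes lay farther off, GH9B7 at 2.11, GH9A3 at 2.26, GH9B8 at 2.56, GH9C2 at 2.82, GH9B18 at 2.89 and GH9A4 at 4.23.

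**Figure D4:**
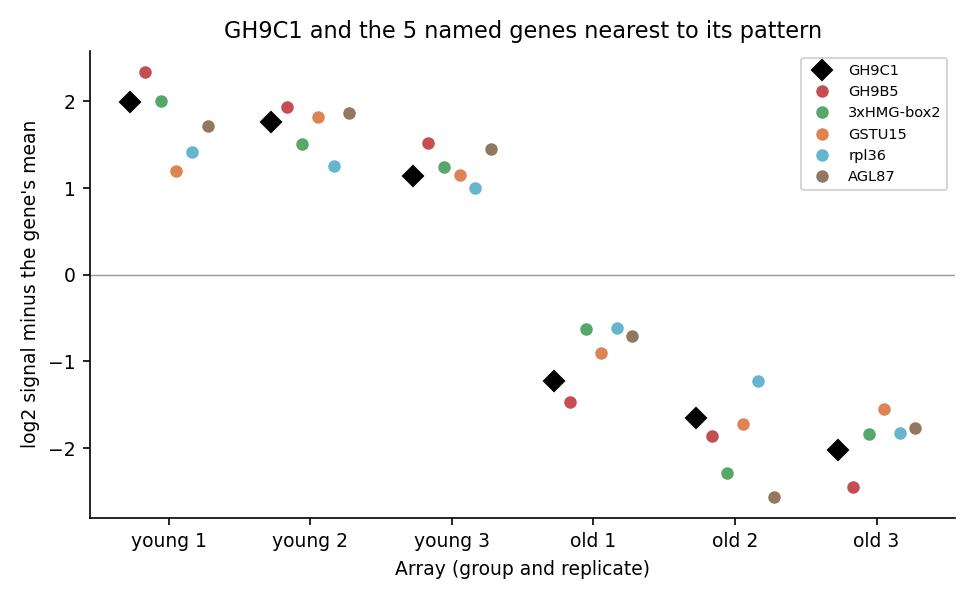
Log2 signal minus the gene's own mean on each of the 6 arrays for GH9C1 (black diamonds) and the 5 genes with a symbol nearest to it by Euclidean distance. All 6 genes lie above 0 on the young arrays and below 0 on the old arrays, and GH9B5 is the nearest at a distance of 0.76.

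Few other genes of cellulose and wall loosening could be tested. Of 12 listed genes for cellulose synthesis in primary walls, 3 were tested and none passed in limma, with 1 (COB) at an unadjusted p under 0.05. COB, which orients cellulose deposition, was at 348.2, 476.5 and 210.1 in young pods and at 586.7, 552.7 and 792.8 in old pods. COB was higher on every old array, at a log2 change of 0.96 (SE 0.31) that did not pass (limma adjusted p = 0.0626). The loci AT1G45688 and AT5G42860 were at 0.46 and -0.88. No gene of the 7 listed for secondary wall cellulose had a named probe set.

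Of 21 listed genes for xyloglucan, 2 were tested and neither passed in limma, also unadjusted, the glucan synthase gene CSLC4 at 0.53 and the endotransglucosylase gene XTH27 at 0.07. Expansins, proteins that loosen walls without cutting chains, fell in part. Of 18 listed, 4 were tested, 2 fell, none rose and the median log2 change was -1.70. EXPA9 at -0.71 and EXPA15 at 0.70 did not pass in limma. EXPA15 was at 118.8, 96.3 and 94.3 in young pods and at 661.6, 69.8 and 99.4 on old replicates 1, 2 and 3. EXPB3 was at 100.8, 126.0 and 237.4 in young pods and at 31.9, 17.2 and 20.5 in old pods. Its fall was at least 5.23-fold (limma adjusted p = 0.0028), and it passed under all 19 alternative settings.

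EXPA8 was at 29.3, 157.1 and 203.4 in young pods and at 6.9, 11.9 and 29.9 in old pods. It fell by 2.86 on the log2 scale (limma adjusted p = 0.0388), with overlapping groups. Young replicate 1 and old replicates 1 and 2 were under the percentile of their arrays, so the depth of this fall is uncertain. The call passed under 11 of the 18 alternative settings that tested it, and was lost with low signals raised to the percentile. Of 11 listed dehiscence genes, 3 were tested and 1 rose. ADPG1, a polygalacturonase that cuts pectin where the pod opens, was at 76.7, 102.2 and 45.1 in young pods and at 1208, 1248 and 901.1 in old pods. It rose 15.7-fold (SE 0.31 on the log2 scale, limma adjusted p = 0.000387), against the direction of the GH9 genes that fell. SPT and ALC, regulators of pod patterning, did not pass at 0.27 and -0.24.

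**Figure D5:**
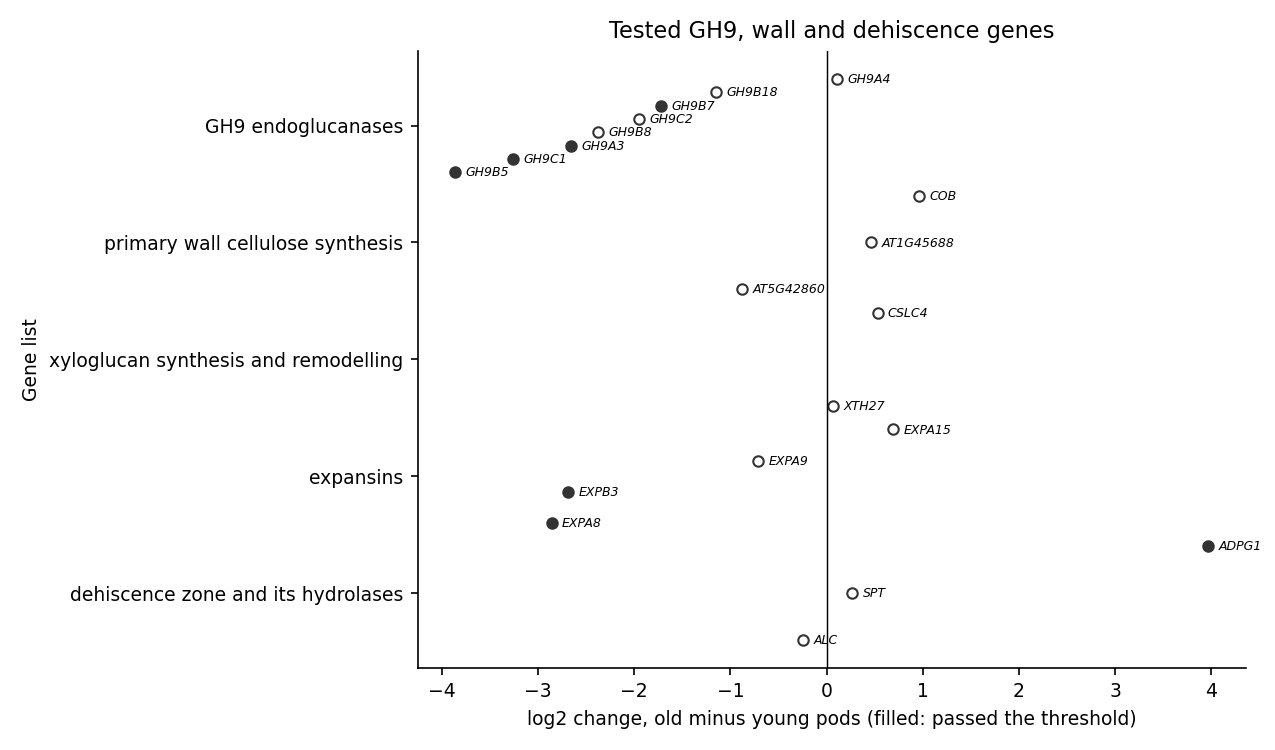
Log2 change, old minus young pods, of the tested GH9 genes and of the tested genes in the lists for primary wall cellulose, xyloglucan, expansins and the dehiscence zone, filled where the adjusted p was under 0.05. ADPG1 at 3.97 is the only filled point above 0, and the GH9 genes and 2 expansins hold the filled points below 0.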

How the data were processed

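Arrays were processed with MAS5, per the submitters' processing notes, with no version named, and detection calls were not used here. The deposited values are intensities, 1 linear signal per probe set, with a mean near 100 on every array after trimming 2% from each end. Samples were grouped, and replicates numbered, by title. Signals under 0.1 were set to 0.1 and taken as log2. The comparison of pod ages used limma 3.58.1 under R 4.3.3 (lmFit, eBayes with a variance trend), fitted on all 14277 probe sets above the 40th percentile on at least 3 arrays, with no further normalization, two-sided, and Benjamini-Hochberg adjustment over all of them.

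Deviations from group means correlated at 0.286, 0.113 and 0.119 between same-numbered young and old arrays, all above 0.1. The highest correlation of young replicates 1, 2 and 3 with an old array of another number was -0.178, 0.187 and 0.114, so for replicate 2 it was above that of its own number. These values do not settle whether the numbers pair samples. The main fit did not pair them, and a fit with the number as a block was an alternative. Other alternatives were the transformation, filter, scaling, variance model and arrays left out.

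The genes and lists were chosen with earlier results of these data known. Besides the GH9 genes, the text names at most 4 genes past the threshold per list, or else the brightest 2, and the 5 genes nearest to GH9C1. A few list members beyond that rule are also named: the locus AT5G42860, ALC, SPT, RCA, PRK, EXPA9 and EXPA15. Of 118 list entries 32 were named on the array and 19 tested. Probe sets naming several genes were not used, 2 of them for GH9 genes. No reference sequences were used here.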

Additional observations from a re-analysis of the deposited data

How the results depend on the processing

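Over 19 alternative settings no GH9 gene passed as higher, and the class medians stayed below 0. The class B median was -0.903 with no filter, where 10 genes entered in place of 4, and the class A median was -2.66 with the filter at the 60th percentile, where 1 gene was left. The count of GH9 genes that were lower was 7 in replicates 2 and 3 alone and 4 to 7 when 1 array was left out, with 7 without old pod replicate 1. It was 3 with hybridisation control scaling, which ended the call of GH9B7, and 3 in the ordinary two-sample test, which ended that of GH9A3. The replicate block gave 5, adding GH9B8 (limma adjusted p = 0.0243), and changed no other GH9 call. A term setting replicate 1 of both groups apart from the other replicates also gave 5, adding GH9B8 (limma adjusted p = 0.0141). With that term 4197 of all 14277 probe sets passed in either direction, against 3145 in the main fit. The sample titles name no batch, so that term does not stand for a known one. Over all probe sets the count was 628 with hybridisation control scaling, 1360 in the ordinary two-sample test, and 1736 to 3602 when 1 array was left out (1736 without old pod replicate 2, 1812 and 1975 without young pod replicates 2 and 3, 2047 without old pod replicate 3), against 3145. The cause was not tested. Signals at or under the percentile limit the depth of the falls of GH9B5 and GH9C1, and GH9A4 reversed sign in 3 settings without passing in any.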
